A study of Homo sapiens with 9 samples.

Results

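Tumour cells can restrain T cells, NK cells and macrophages through proteins known as immune checkpoint ligands and enzymes. The 9 genes described here encode such proteins and were chosen by symbol, 1 row per symbol, from the 60605 genes of the deposited table. They are *CD274*, *PDCD1LG2*, *LGALS9*, *CD276*, *PVR*, *NECTIN2*, *CD47*, *IDO1* and *NT5E*, and all 9 were among the 21397 genes tested. They were measured in TE13 cells, an established human esophageal squamous cell carcinoma (ESCC) line, after siRNA knockdown of the lncRNA PARylator (LINC00885). The 3 conditions were control siRNA, PARylator siRNA.1 and PARylator siRNA.2, with 3 libraries each described as biological replicates, 9 in all and all from a single cell line. The sources used here give no siRNA dose or harvest time for these libraries, and they name no drug or cytokine treatment.

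PD-L1, the product of *CD274*, and PD-L2, the product of *PDCD1LG2*, bind the receptor PD-1 on T cells and lower their activity. Their transcription rises in many epithelial tumours when interferon activates JAK kinases and STAT transcription factors. Galectin-9 (*LGALS9*) is a lectin that binds TIM-3, and B7-H3 (*CD276*) is a B7 family protein of tumour cells. PVR and nectin-2 (*NECTIN2*) are adhesion molecules that engage both the inhibitory receptor TIGIT and the activating receptor CD226. CD47 signals through SIRPA on macrophages to limit phagocytosis. IDO1 degrades tryptophan to kynurenine, and CD73 (*NT5E*) makes extracellular adenosine from AMP.

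The libraries held between 15337917 and 22559998 counts on genes. The share of mitochondrial counts was 7.46% to 7.66% in the control libraries, 4.99% to 5.06% after siRNA.1 and 5.54% to 5.56% after siRNA.2, so this share moved with every comparison against control, and its part in them was not tested. Replicates were not copies of each other, since their counts differed beyond sampling noise (chi-square divided by its degrees of freedom, 2.76 to 4.65). The target LINC00885 was nearly undetected, at 6, 7 and 12 counts after control siRNA, 4, 5 and 2 after siRNA.1, and 2, 0 and 4 after siRNA.2. On the log2 scale it stood at -1.21 after siRNA.1 (SE 0.95, edgeR adjusted p = 0.376) and -2.33 after siRNA.2 (SE 1.01, edgeR adjusted p = 0.0659), so a lower level of the target was not detectable at this depth by the main test. All 11 squamous epithelial markers examined, keratins and TP63 among them, averaged at least 1 FPKM (FPKM is the count divided by the exonic length and by the library total).

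The 9 genes fell into an abundant and a scarce group in the control libraries. *NECTIN2* was highest at 37.3 ± 1.34 FPKM (mean ± SD, n = 3), followed by *NT5E* at 26.99 ± 0.269 and *CD276* at 25.69 ± 0.636, none of which overlapped the next gene. *CD47* at 16.98 ± 1.05 and *PVR* at 16.59 ± 0.803 overlapped each other. *CD274* at 3.65 ± 0.344, *PDCD1LG2* at 2.25 ± 0.348, *LGALS9* at 1.14 ± 0.205 and *IDO1* at 0.323 ± 0.116 followed without overlap. *NECTIN2* exceeded 96.0% of the expressed genes in these libraries and *IDO1* exceeded 41.5%.

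This order differed after PARylator knockdown. *NT5E* led after each siRNA, at 79.98 ± 3.70 FPKM after siRNA.1 and 63.04 ± 0.758 after siRNA.2, and its share of the summed FPKM of the 9 genes was 20.6% in the control condition, 38.6% after siRNA.1 and 35.9% after siRNA.2. *NECTIN2* came next in both conditions, and *PVR* stood above *CD276* after siRNA.1 but overlapped it after siRNA.2. *PDCD1LG2* and *LGALS9* overlapped each other after either siRNA. *IDO1* stayed lowest. The summed FPKM of the 9 genes was 129.5 to 133.3 in the control libraries, 205.7 to 209.7 after siRNA.1 and 174.6 to 176.1 after siRNA.2.

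**Figure D1:**
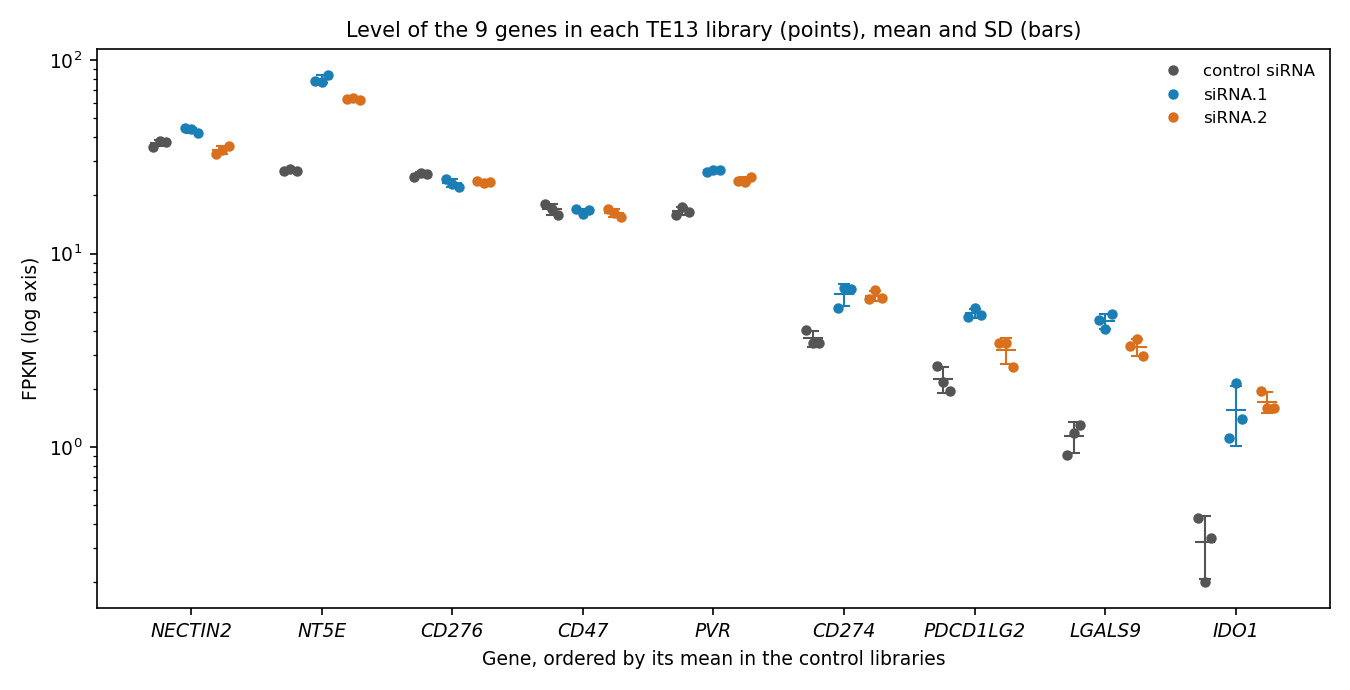
FPKM (log axis) of the 9 genes in each TE13 library, with points for libraries, and horizontal bars and whiskers for the mean and SD of 3 libraries. *NT5E* lies between 26.77 and 27.29 FPKM in the control libraries and between 62.46 and 84.21 in the siRNA libraries, whereas *CD47* lies between 15.40 and 18.01 throughout.

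After siRNA.1, 7 of the 9 genes were higher than after control siRNA at an adjusted p under 0.05 in edgeR's quasi-likelihood test, 1 was lower and 1 did not pass. Of all genes tested, 15.0% were higher and 15.2% lower. After siRNA.2, 6 were higher, 2 were lower and 1 did not pass, where 15.8% of all genes were higher and 15.1% lower. Over the 9 genes, the median change on the log2 scale was 0.73 after siRNA.1 and 0.52 after siRNA.2, beside -0.0005 and 0.0040 over all genes tested. On counts scaled by the TMM method, the libraries of siRNA.1 and control did not overlap for 8 of the 9 genes (38.5% of all genes), and those of siRNA.2 and control did not overlap for 6 (39.8% of all genes). Both comparisons use the same control libraries. All 9 genes averaged at least 1 FPKM, whereas the shares of all genes include genes down to a mean of 0.1 FPKM. The 9 genes and all genes are therefore not matched for level, and the 9 were chosen with earlier results of these data known.

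**Figure D2:**
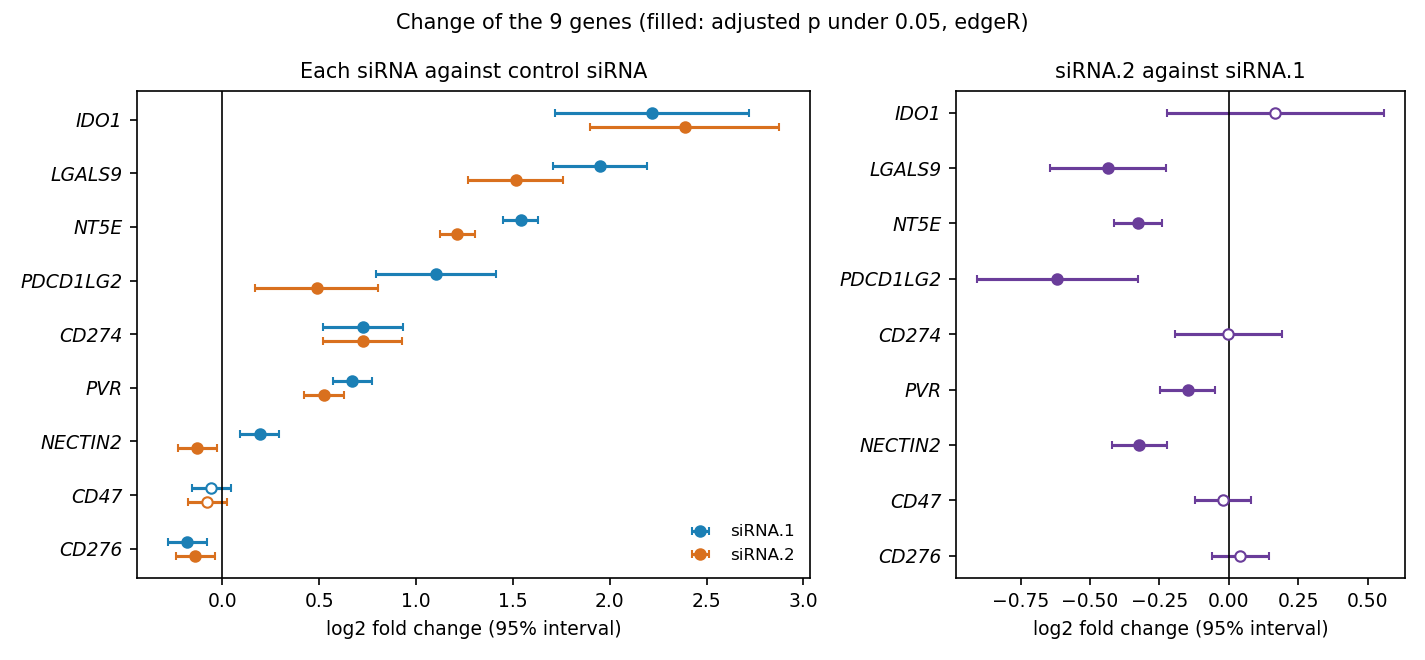
Log2 fold change (x axis) of each of the 9 genes with its 95% interval from edgeR. The left panel sets each siRNA against control siRNA and the right panel sets siRNA.2 against siRNA.1, with filled points for an adjusted p under 0.05. *IDO1* has the largest change of the 9 genes against control (2.22 and 2.39), *CD47* has an open point in both panels, and the 5 filled points on the right are negative; *CD47* changed sign to 0.06 after siRNA.1 when FPKM were rescaled to an equal sum.

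*CD274* lies on GRCh38 chromosome 9, bases 5450503 to 5470566 on the plus strand (ENSG00000120217), and *PDCD1LG2* lies 39965 bases further along, at 5510531 to 5571282 on the same strand (ENSG00000197646). *LGALS9* is on chromosome 17, 27629798 to 27649560, plus strand (ENSG00000168961). *NT5E* is on chromosome 6, 85449584 to 85495791, plus strand (ENSG00000135318). The 300 bases around the RefSeq start site of 3 of the genes, 250 before and 50 after (GRCh38.p14), are printed because *CD274* and *LGALS9* hold letters of the interferon-stimulated response element core and *NT5E*, which also rose after each siRNA, holds none of the 4 motifs searched. Capitals mark the matches to GAAANNGAAA (interferon-stimulated response element core, here on the minus strand) and TTCNNNGAA (gamma-activated site core).
CD274 chr9:5450292-5450591, plus strand: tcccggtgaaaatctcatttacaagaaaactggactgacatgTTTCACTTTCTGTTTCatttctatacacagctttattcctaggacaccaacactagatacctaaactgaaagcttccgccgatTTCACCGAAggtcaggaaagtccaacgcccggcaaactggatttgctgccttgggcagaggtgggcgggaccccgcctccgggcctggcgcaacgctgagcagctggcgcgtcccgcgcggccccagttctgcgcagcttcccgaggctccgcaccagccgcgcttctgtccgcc
LGALS9 chr17:27630938-27631237, plus strand: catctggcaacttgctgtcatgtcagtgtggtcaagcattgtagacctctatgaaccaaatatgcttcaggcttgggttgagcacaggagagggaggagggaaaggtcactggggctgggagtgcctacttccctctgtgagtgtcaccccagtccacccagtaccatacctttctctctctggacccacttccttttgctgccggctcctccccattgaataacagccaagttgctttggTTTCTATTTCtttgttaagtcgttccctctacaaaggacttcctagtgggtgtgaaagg
NT5E chr6:85449833-85450132, plus strand: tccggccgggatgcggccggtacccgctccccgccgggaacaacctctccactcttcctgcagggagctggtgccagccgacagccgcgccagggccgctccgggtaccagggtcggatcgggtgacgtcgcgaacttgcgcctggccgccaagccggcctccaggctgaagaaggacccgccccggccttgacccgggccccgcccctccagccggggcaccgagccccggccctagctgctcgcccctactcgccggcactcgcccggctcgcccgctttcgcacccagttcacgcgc

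In *CD274* the interferon-stimulated response element core matched at -208 to -199 and, overlapping it, at -202 to -193 relative to the start site, and the gamma-activated site core matched at -125 to -117. In *LGALS9* the interferon-stimulated response element core matched at -9 to 1. On both strands, these cores occurred in 3.57% and 7.66% of the 35116 promoters of equal length in the RefSeq table. The E-box CACGTG, held by 7.26% of promoters, matched in none of the 8 promoters found for 7 of the 9 genes. No promoter of *IDO1* or *PDCD1LG2* was searched. The cyclic AMP response element TGACGTCA, held by 1.85%, matched in *NECTIN2* alone, at 2 to 9. No motif searched matched in the promoters of *CD47*, *PVR*, *CD276* or *NT5E*. The *NT5E* promoter is 75.0% G and C, the *LGALS9* promoter 50.7% and the *CD274* promoter 57.3%. These matches describe letters only.

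*CD274*, which encodes PD-L1, rose after each siRNA. It had 4.05, 3.44 and 3.47 FPKM in the control libraries, 5.25, 6.63 and 6.59 after siRNA.1, and 5.83, 6.50 and 5.89 after siRNA.2, from 220 to 546 counts per library. Every siRNA library was above every control library, and the libraries of the siRNAs overlapped each other. The log2 fold change was 0.73 after siRNA.1 (SE 0.11, edgeR adjusted p = 1.11e-10) and 0.72 after siRNA.2 (SE 0.10, edgeR adjusted p = 6.32e-11), or 1.66-fold and 1.65-fold. The difference of siRNA.2 from siRNA.1 was -0.0024 on the log2 scale, with a 95% interval of -0.20 to 0.19.

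*PDCD1LG2*, encoding the other ligand of PD-1, rose by a larger factor after siRNA.1 than after siRNA.2. It had 2.63, 2.16 and 1.95 FPKM after control siRNA, 4.70, 5.22 and 4.83 after siRNA.1, and 3.47, 3.45 and 2.61 after siRNA.2. The siRNA.1 libraries were the 3 highest, while the third siRNA.2 library fell within the control range. The log2 fold change was 1.10 after siRNA.1 (SE 0.16, edgeR adjusted p = 5.79e-11) and 0.49 after siRNA.2 (SE 0.16, edgeR adjusted p = 0.0111). Set directly against siRNA.1, siRNA.2 was lower by 0.62 (95% interval -0.91 to -0.33, edgeR adjusted p = 0.000639). The call after siRNA.2 was lost without control replicate 3 (0.39, edgeR adjusted p = 0.0973), without siRNA.2 replicate 1 (0.43, edgeR adjusted p = 0.0585), without siRNA.2 replicate 2 (0.42, edgeR adjusted p = 0.0698), and with limma on log2(FPKM + 0.1) (0.48, adjusted p = 0.0546). The direct difference was also lost with that limma fit (-0.62, adjusted p = 0.0781).

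The genes that neighbour this pair on chromosome 9 were read after the values of the pair were seen. *PLGRKT*, 12578 bases from *CD274* and encoding a plasminogen receptor, had log2 fold changes of 0.13 after siRNA.1 and 0.03 after siRNA.2, neither of which passed (edgeR adjusted p = 0.5345 and 0.9116). *JAK2*, the kinase gene 320555 bases away, had -0.17 and 0.16 (edgeR adjusted p = 0.2859 and 0.2843). *ERMP1*, 294510 bases away, fell by 0.51 and 0.53 (edgeR adjusted p = 7.372e-16 and 1.732e-17). *CD274* and *PDCD1LG2* overlap an antisense gene, ENSG00000286162, with 18 to 57 counts per library, beside at least 82 for *PDCD1LG2*. Whether reads were counted by strand is not given in the sources used here, so a part of either value may belong to the antisense gene.

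*LGALS9*, encoding galectin-9, had the second largest change of the 9 genes. Control libraries had 0.91, 1.19 and 1.31 FPKM, siRNA.1 libraries 4.57, 4.06 and 4.86, and siRNA.2 libraries 3.33, 3.62 and 2.96. The 3 conditions did not overlap, and counts ran from 80 in a control library to 485 in a siRNA.1 library. Its log2 fold change was 1.95 after siRNA.1 (SE 0.12, edgeR adjusted p = 1.45e-53) and 1.51 after siRNA.2 (SE 0.13, edgeR adjusted p = 8.97e-32), which are 3.86-fold and 2.86-fold. siRNA.2 was lower than siRNA.1 by 0.44 (95% interval -0.64 to -0.23, edgeR adjusted p = 0.000868), but not at the threshold with limma on log2(FPKM + 0.1) (-0.43, adjusted p = 0.174). Reads can be shared with the near-identical copies *LGALS9B*, with 1 to 10 counts per library, and *LGALS9C*, with 0 to 6, so the value of each of the 3 genes is uncertain by what the counting assigned among them.

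*CD276*, encoding B7-H3, was slightly lower. It lies on chromosome 15, 73683966 to 73714514, plus strand (ENSG00000103855). It had 25.01, 26.27 and 25.79 FPKM after control siRNA, 24.22, 23.02 and 22.05 after siRNA.1, and 23.84, 23.17 and 23.52 after siRNA.2. All 6 siRNA libraries were below the control libraries, while the siRNAs overlapped. The log2 fold change was -0.18 after siRNA.1 (SE 0.05, edgeR adjusted p = 0.0026) and -0.14 after siRNA.2 (SE 0.05, edgeR adjusted p = 0.0248). Neither call held with limma, where the values were -0.15 (adjusted p = 0.0827) and -0.13 (adjusted p = 0.138), or -0.07 and -0.07 once FPKM were rescaled to an equal sum in each library. After siRNA.2 the call was also lost without control replicate 2 (edgeR adjusted p = 0.0937), control replicate 3 (edgeR adjusted p = 0.0732), siRNA.2 replicate 2 (edgeR adjusted p = 0.0746) or siRNA.2 replicate 3 (edgeR adjusted p = 0.0548), with log2 fold changes of -0.15 to -0.13.

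The ligands of TIGIT and CD226 differed from each other. *PVR* lies on chromosome 19, 44643798 to 44666162, plus strand (ENSG00000073008), and *NECTIN2* lies 180013 bases further along at 44846175 to 44889223, plus strand (ENSG00000130202). *PVR* had 15.92, 17.48 and 16.37 FPKM after control siRNA, 26.59, 27.18 and 27.02 after siRNA.1, and 23.68, 23.42 and 24.97 after siRNA.2. The 3 conditions did not overlap. *PVR* rose by 0.67 on the log2 scale after siRNA.1 (SE 0.05, edgeR adjusted p = 5.89e-36) and by 0.52 after siRNA.2 (SE 0.05, edgeR adjusted p = 3.15e-22). The direct difference between siRNAs was -0.15 (95% interval -0.25 to -0.05, edgeR adjusted p = 0.0317), and it was lost with limma (-0.16, adjusted p = 0.179), with no filter on low values (-0.15, edgeR adjusted p = 0.0588), and without siRNA.1 replicate 2 (edgeR adjusted p = 0.0699), siRNA.1 replicate 3 (edgeR adjusted p = 0.1), siRNA.2 replicate 1 (edgeR adjusted p = 0.139) or siRNA.2 replicate 2 (edgeR adjusted p = 0.139), with values of -0.15 to -0.13. *PVR* overlaps *CEACAM19* on the same strand, which had 142 to 229 counts beside at least 1489 for *PVR*.

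*NECTIN2* was higher after siRNA.1 and lower after siRNA.2. It had 35.77, 38.26 and 37.86 FPKM after control siRNA, 44.43, 43.92 and 41.95 after siRNA.1, and 32.80, 34.19 and 36.00 after siRNA.2. The siRNA.1 libraries were the 3 highest, whereas the third siRNA.2 library lay above the first control library. Its log2 fold change was 0.19 after siRNA.1 (SE 0.05, edgeR adjusted p = 0.000885) and -0.13 after siRNA.2 (SE 0.05, edgeR adjusted p = 0.0359). The direct difference was -0.32 (95% interval -0.42 to -0.22, edgeR adjusted p = 1.16e-08). The lower level after siRNA.2 was lost with limma (-0.12, adjusted p = 0.197), with no filter on low values (-0.12, edgeR adjusted p = 0.0875), and without control replicate 2 (-0.11, edgeR adjusted p = 0.131), control replicate 3 (-0.12, edgeR adjusted p = 0.127), siRNA.2 replicate 1 (-0.09, edgeR adjusted p = 0.26) or siRNA.2 replicate 2 (-0.13, edgeR adjusted p = 0.0758).

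*CD47*, the signal to macrophages, passed in no comparison. It lies on chromosome 3, 108043091 to 108091862, minus strand (ENSG00000196776), and had 18.01, 17.02 and 15.91 FPKM after control siRNA, 17.00, 16.11 and 16.74 after siRNA.1, and 16.93, 16.29 and 15.40 after siRNA.2. The 3 conditions overlapped. The log2 fold change was -0.06 after siRNA.1 (95% interval -0.16 to 0.04, edgeR adjusted p = 0.458), which became 0.06 with limma on FPKM rescaled to an equal sum (adjusted p = 0.611). After siRNA.2 it was -0.08 (95% interval -0.18 to 0.02, edgeR adjusted p = 0.27). These intervals leave room for changes of about their bounds and do not show that the level was equal.

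*NT5E*, encoding CD73, combined a high level with a large change. It had 26.77, 27.29 and 26.91 FPKM in the control libraries, 78.35, 77.38 and 84.21 after siRNA.1, and 62.77, 63.90 and 62.46 after siRNA.2, from 1861 to 6665 counts. The 3 conditions did not overlap and siRNA.1 was highest. The log2 fold change was 1.54 after siRNA.1 (SE 0.05, edgeR adjusted p = 6.1e-240) and 1.21 after siRNA.2 (SE 0.05, edgeR adjusted p = 5.71e-150), or 2.91-fold and 2.32-fold. siRNA.2 was lower than siRNA.1 by 0.33 (95% interval -0.41 to -0.24, edgeR adjusted p = 7.84e-12).

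*IDO1*, encoding the tryptophan-degrading enzyme indoleamine 2,3-dioxygenase, had the lowest level and the largest fold change of the 9 genes. It lies at 39902275 to 39928790 on the plus strand of chromosome 8 (ENSG00000131203). Its counts were 23, 11 and 21 after control siRNA (0.43, 0.20 and 0.34 FPKM), 69, 115 and 85 after siRNA.1 (1.11, 2.14 and 1.40 FPKM), and 135, 107 and 125 after siRNA.2 (1.95, 1.60 and 1.59 FPKM). Every siRNA library was above every control library, and the second siRNA.1 library was the highest of all. The log2 fold change was 2.22 after siRNA.1 (SE 0.25, edgeR adjusted p = 1.02e-16) and 2.39 after siRNA.2 (SE 0.25, edgeR adjusted p = 4.05e-20), or 4.66-fold and 5.23-fold. The siRNAs differed by 0.17 (95% interval -0.22 to 0.56, edgeR adjusted p = 0.711). On the log2(FPKM + 1) scale, which understates the change of low genes, the differences were 0.93 and 1.04.

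Set directly against siRNA.1, siRNA.2 gave 0 higher and 5 lower calls among the 9 genes, *PDCD1LG2*, *LGALS9*, *NT5E*, *PVR* and *NECTIN2*. Of all genes tested, 6.1% were higher and 6.07% lower in this comparison. *CD274*, *IDO1*, *CD47* and *CD276* did not pass, with *CD276* at 0.04 (95% interval -0.06 to 0.14, edgeR adjusted p = 0.725) and *CD47* at -0.02 (95% interval -0.12 to 0.08). The calls of *NT5E* and *NECTIN2* passed under every alternative run, whereas limma on log2(FPKM + 0.1) left 2 of the 5 calls.

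TE13 libraries hold RNA of all cells in the culture, and fewer cells of a type and less RNA per cell cannot be told apart. Markers of the immune cells that carry the matching receptors were examined for this reason. Of 8 T and NK cell markers, *CD3D*, *CD3E*, *CD3G*, *CD2* and *GZMA* had 3 counts or fewer in every library, *CD8A* had 11 to 49, and the summed FPKM of the list was 0.73 to 0.85 in the control libraries, 0.77 to 0.94 after siRNA.1 and 0.66 to 1.03 after siRNA.2. *CD4*, which myeloid cells also express, was the single gene of that list to pass, with 2, 5 and 4 counts after control siRNA and 15, 16 and 15 after siRNA.1. At 0.05 FPKM after control siRNA and 0.09 after siRNA.2, *CD4* passed the filter of 0.1 FPKM only through siRNA.1 (0.203). Its call is therefore tied to that filter. Of 4 B cell markers, *MS4A1* was at 0 throughout. All 8 myeloid markers were tested, and 6 were higher after siRNA.1 and 5 after siRNA.2, beside 15.0% and 15.8% of all genes tested. *LYZ* (lysozyme) had 13, 2 and 12 counts after control siRNA, 80, 70 and 94 after siRNA.1 and 107, 92 and 129 after siRNA.2. The summed FPKM of the myeloid list was 1.17 to 1.91, 6.06 to 6.49 and 6.21 to 7.29 in the 3 conditions, none of its genes was at 3 counts or fewer in every library, and *PTPRC*, the pan-leukocyte gene CD45, had 4 to 7, 18 to 35 and 22 to 34 counts. *PTPRC* and *CD14*, another gene of this list, averaged 0.0333 and 0.05 FPKM after control siRNA. These genes passed the filter of 0.1 FPKM only through the siRNA libraries, so the count of higher markers is partly tied to that filter. The myeloid list moved together with *CD274*, *PDCD1LG2*, *LGALS9*, *IDO1*, *NT5E* and *PVR*, and its part in them was not tested. The summed squamous epithelial markers were 1010 to 1029 FPKM after control siRNA, 800.7 to 832.9 after siRNA.1 and 786.2 to 803.8 after siRNA.2, with 3 of 11 genes higher and 6 lower after siRNA.1, and 3 higher and 7 lower after siRNA.2. Fibroblast markers summed to at most 2.49 FPKM and endothelial markers to at most 1.54, both in control libraries.

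Most receptors of these ligands had few counts, with *SIRPA* as an exception. Of 18 receptor genes of immune cells, 3 passed the filter of a mean of 0.1 FPKM, and *PDCD1*, *CTLA4*, *CD28*, *ICOS*, *TIGIT*, *SIRPG*, *BTLA* and *CD244* had 3 counts or fewer in every library. After siRNA.1 none of the 3 passed edgeR's test, and after siRNA.2 1 was higher and 1 lower. These were *HAVCR2*, the TIM-3 gene, with 1, 1 and 2 counts after control siRNA and 17, 11 and 17 after siRNA.2, and *SIRPA*, the CD47 receptor, which fell by 0.30 on the log2 scale, from 3.49 ± 0.153 FPKM after control siRNA to 2.85 ± 0.293 after siRNA.2 (n = 3 each). Both were named after their values were seen. *HAVCR2* averaged 0.0233 FPKM after control siRNA and passed the filter only through the siRNA libraries, at 0.103 and 0.227 FPKM. Its higher call is therefore tied to that filter.

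Among other ligands through which tumour cells meet T and NK cells, 24 of 35 listed genes were tested. After siRNA.1, 6 were higher, 6 were lower and 12 did not pass, with a median log2 fold change of -0.01. After siRNA.2, 6 were higher, 5 were lower and 13 did not pass, with a median of 0.02. The higher genes included *CEACAM1*, a TIM-3 partner (log2 fold change 1.76 after siRNA.1 and 1.38 after siRNA.2), *NCR3LG1*, the NKp30 ligand B7-H6 (1.42 and 1.09), and *TNFSF18*, the GITR ligand (1.56 and 0.71). *VSIR*, encoding the checkpoint protein VISTA, was lower, at 11.19 ± 1.14 FPKM after control siRNA, 5.47 ± 0.633 after siRNA.1 and 5.30 ± 0.272 after siRNA.2 (n = 3 each).

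The regulators of PD-L1 were tested in full, 28 of 28. Of these, 5 were higher, 10 lower and 13 did not pass after siRNA.1 (median log2 fold change -0.07), and 4 were higher, 12 lower and 12 did not pass after siRNA.2 (median -0.11). *MYC*, a transcription factor gene, rose by 0.85 after siRNA.1 and by 0.83 after siRNA.2 on the log2 scale. *CMTM6*, whose protein keeps PD-L1 at the cell surface, fell by 0.62 and 0.64, and *TYK2*, a kinase of the type I interferon receptor, fell by 0.42 and 0.47. The level of *CMTM6* was 49.77 ± 0.230 FPKM after control siRNA, 33.01 ± 0.476 after siRNA.1 and 32.26 ± 0.594 after siRNA.2 (n = 3 each), opposite in direction to *CD274*.

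Around *IDO1*, 15 of 18 genes of tryptophan and kynurenine metabolism and its sensing were tested. After siRNA.1, 8 were higher, 2 were lower and 5 did not pass (median log2 fold change 0.33), and after siRNA.2, 8 were higher, 0 were lower and 7 did not pass (median 0.29). *WARS1*, the cytosolic tryptophanyl-tRNA synthetase, rose by 0.89 and 1.03. *KMO*, which hydroxylates kynurenine, rose by 0.43 and 0.57, *SLC3A2*, the heavy chain of the large neutral amino acid transporter, by 0.47 and 0.43, and *CYP1B1*, a target of the aryl hydrocarbon receptor, by 0.93 and 0.74. Levels of *WARS1* were 47.86 ± 1.287, 90.53 ± 1.657 and 98.51 ± 1.495 FPKM in the control, siRNA.1 and siRNA.2 conditions (n = 3 each).

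Around *NT5E*, 8 of 14 genes of extracellular adenosine were tested. *ENTPD1* and *CD38*, enzymes that can act upstream of CD73, averaged less than 0.1 FPKM and were not tested. After siRNA.1, 2 were higher and 2 lower, and after siRNA.2, 1 was higher and 2 lower, with medians of -0.03 and -0.09. *ENTPD2*, a related enzyme gene of this list, was tested and averaged 1.97 FPKM after control siRNA. It was at -0.66 on the log2 scale after siRNA.1 (edgeR adjusted p = 0.00851) and -0.10 after siRNA.2 (edgeR adjusted p = 0.785). *SLC29A1*, an adenosine transporter, rose by 0.37 and 0.76. *ADA*, which deaminates adenosine, fell by 0.54 and 0.51, a call lost with limma on log2(FPKM + 0.1) (adjusted p = 0.051 and 0.0541). *SLC29A2*, a related transporter, was higher after siRNA.1 (0.21, edgeR adjusted p = 0.0183) and lower after siRNA.2 (-0.19, edgeR adjusted p = 0.0338). The first call was lost without control replicate 1 (0.17) or siRNA.1 replicate 3 (0.19), and the second without control replicate 2 (-0.15), control replicate 3 (-0.19), siRNA.2 replicate 1 (-0.18) or siRNA.2 replicate 3 (-0.18) and with limma (-0.18). Set directly against siRNA.1, siRNA.2 was at -0.40 (95% interval -0.54 to -0.26, edgeR adjusted p = 1.95e-06).

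Of the *CD47* axis, 8 of 11 genes were tested, with 3 higher and 2 lower after siRNA.1 and 3 higher and 4 lower after siRNA.2 (medians 0.15 and -0.06). *B2M*, the class I light chain read by LILRB1 on macrophages, was at 312.9 ± 5.15 FPKM after control siRNA, 761.7 ± 14.5 after siRNA.1 and 654.9 ± 20.8 after siRNA.2 (n = 3 each). *QPCT*, a glutaminyl cyclase, rose by 1.09 and 0.61, the second of which did not pass without control replicate 1 (0.46, edgeR adjusted p = 0.119). *QPCTL*, of the same list, passed with neither siRNA.1 (0.35, edgeR adjusted p = 0.0538) nor siRNA.2 (0.06, edgeR adjusted p = 0.822). *CD24*, a ligand of SIGLEC10, fell by 0.57 and 0.79, and *LRP1*, the receptor for calreticulin in phagocytosis, fell by 0.88 and 0.90. Of the nectin family beside *PVR* and *NECTIN2*, 5 of 7 were tested, with 1 higher and 2 lower after siRNA.1 and 0 higher and 3 lower after siRNA.2 (medians -0.14 and -0.32). *NECTIN1* fell by 0.64 and 0.91, from 36.96 ± 0.696 FPKM to 24.15 ± 1.47 and 19.85 ± 0.228 (n = 3 each).

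**Figure D3:**
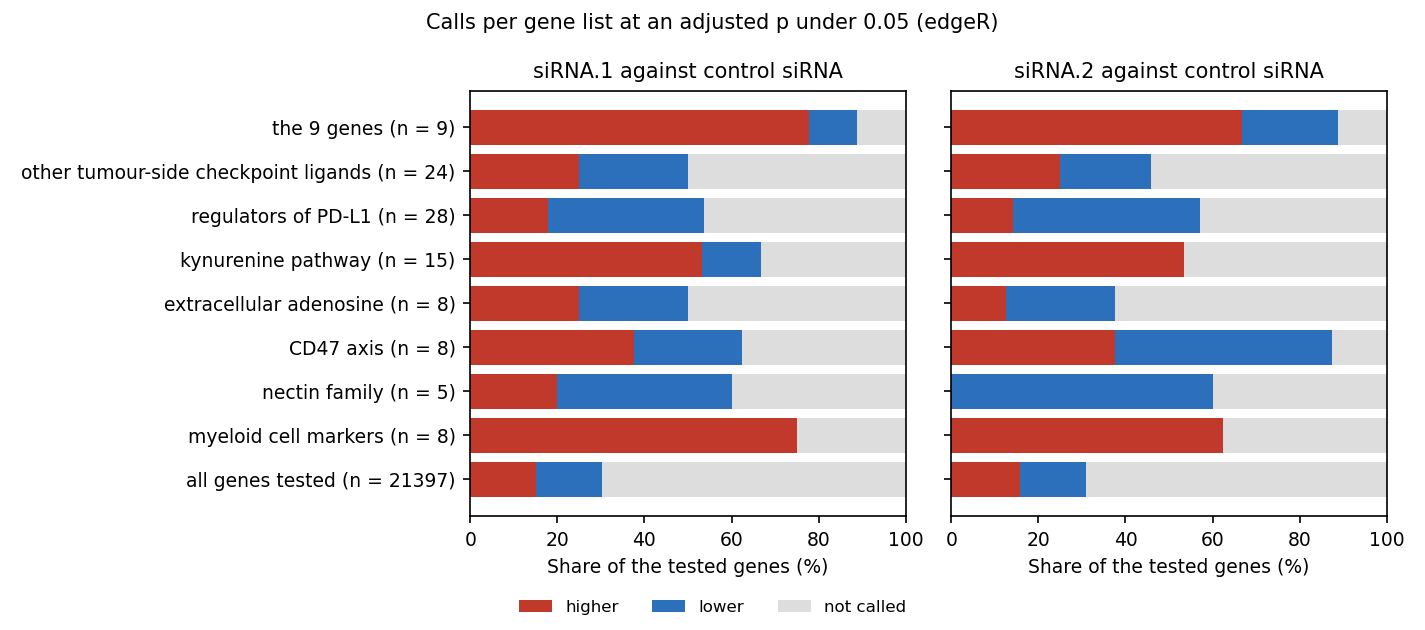
Share (%, x axis) of the tested genes of each list that were higher, lower or not called at an edgeR adjusted p under 0.05, after siRNA.1 on the left and siRNA.2 on the right. Of the 9 genes, 7 were higher after siRNA.1 and 6 after siRNA.2, beside 15.0% and 15.8% of all 21397 genes tested.

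The genes whose profile over the 9 libraries was most like each of the 9 were found by the root mean square difference of log2(FPKM + 0.1) centred on the control mean, among 11867 genes. For *IDO1* these were *XAF1* (0.25), *ZBP1* (0.29) and *IFIT2* (0.32). For *LGALS9* they were *TRIM69* (0.17), *HCP5* (0.18) and *IL1R2* (0.19). *NT5E* was closest to *DUSP4* (0.05), *HLA-B* (0.08) and *EPSTI1* (0.09), and *PDCD1LG2* to *SIRPB2* (0.13), *HLA-E* (0.18) and *BTN3A3* (0.18). *CD274* was closest to *SDHAP3* (0.09) and *BTG1* (0.10), and *PVR* to *SLC1A5*, *DENND4B* and *BLZF1* (each 0.06). *CD47*, *NECTIN2* and *CD276* were closest to *DR1*, *PACSIN3* and *RPS6* (each 0.03). *PACSIN3* was, like *NECTIN2*, at 0.18 after siRNA.1 and -0.14 after siRNA.2 on the log2 scale. Among the 9 genes, the closest pairs were *CD47* with *CD276* (0.11), *CD274* with *PVR* (0.17) and *CD47* with *NECTIN2* (0.17). *CD274* and its neighbour *PDCD1LG2* differed by 0.29.

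**Figure D4:**
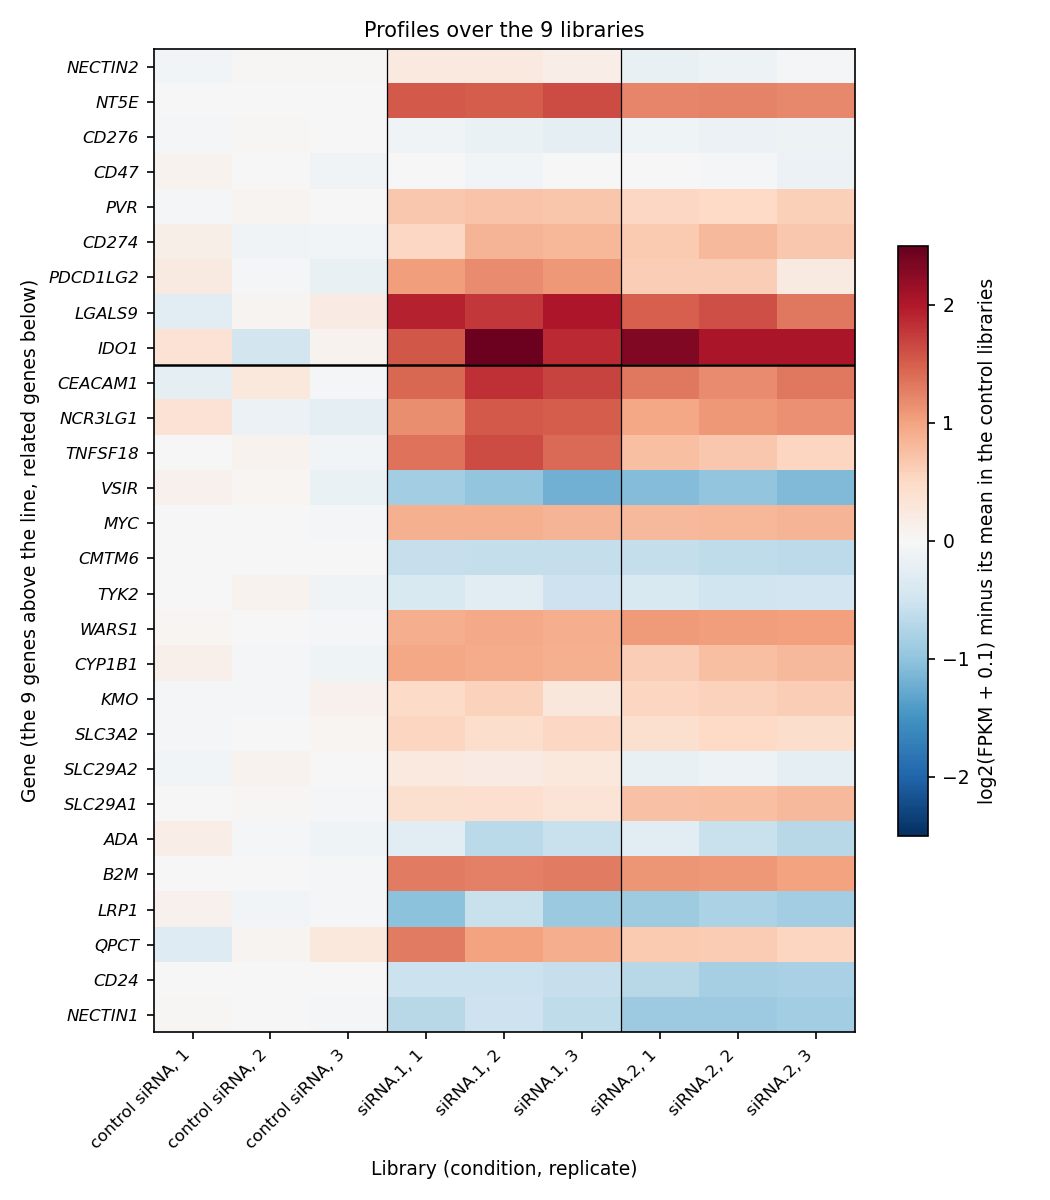
Log2(FPKM + 0.1) minus its mean in the control libraries (colour) for the 9 genes, above the line, and 19 related genes, below it, in each of the 9 libraries. *IDO1*, *LGALS9* and *NT5E* are red in all 6 siRNA libraries, and *VSIR*, *CMTM6* and *NECTIN1* are blue in all 6. *NECTIN2* is nearly white, faintly red after siRNA.1 and faintly blue after siRNA.2.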

How the data were processed

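RNA-seq was performed on poly(A)+ RNA of 9 TE13 libraries on an Illumina NovaSeq instrument, grouped by their labels into 3 conditions of 3. According to the study's methods and the processing notes, reads were checked with FastQC, aligned to GRCh38 with STAR and counted per gene with featureCounts; versions, annotation release and strand setting are not given in the sources used here. The authors deposited each gene's unnormalized count. The authors also deposited FPKM, of which 100.0% were returned from the count, the exonic length and the library total (within 0.0051 or 0.1%). All per-library columns were used.

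Counts were tested with edgeR 4.0.16 (quasi-likelihood, TMM factors 0.989 to 1.02, common biological coefficient of variation 0.0566) in R 4.3.3, with 1 model of 3 conditions and no covariate. Genes averaging 0.1 FPKM or more over the libraries (21397) were tested, with Benjamini-Hochberg adjustment over all of them and a threshold of 0.05. SEs were derived from the F statistic (change over its square root). Levels are FPKM, and intervals are at 95%. limma 3.58.1 on log2(FPKM + 0.1) and DESeq2 1.42.0 were alternatives, beside other filters, scalings, the replicate block and each library left out. The scripts were tested on simulated data. Python 3.11.15 was used for summaries.

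Libraries of the same replicate number did not deviate together, so the numbers were not taken as pairs. The 9 genes and all lists were chosen with earlier results of these data known. Genes named from other lists are at most the 4 of a list with the largest mean change among those passing with both siRNAs in the same direction at a mean of at least 1 FPKM, and any passing in opposite directions. Some genes chosen by these rules are not reported here. Promoters are from RefSeq (GRCh38.p14), which matched 7 of the 9 genes. Precision depends on depth, from 11 counts for *IDO1* in a control library to 6665 for *NT5E*.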

Additional observations from a re-analysis of the deposited data

Results flagged for a closer look

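The siRNAs are 2 reagents against the same lncRNA, and 5 of the 9 genes differed between them in a direct edgeR test of siRNA.2 against siRNA.1. Of all genes tested, 6.1% were higher and 6.07% lower in that test. The log2 differences were -0.62 for *PDCD1LG2* (adjusted p = 0.000639), -0.44 for *LGALS9* (adjusted p = 0.000868), -0.33 for *NT5E* (adjusted p = 7.84e-12), -0.15 for *PVR* (adjusted p = 0.0317) and -0.32 for *NECTIN2* (adjusted p = 1.16e-08). All 5 were lower with siRNA.2. For 4 of them both siRNAs were above control, whereas *NECTIN2* was on opposite sides of it. The difference of *PVR* was lost without any of 4 libraries, as given above. With limma on log2(FPKM + 0.1), the differences of *LGALS9* (adjusted p = 0.174), *PVR* (adjusted p = 0.179) and *PDCD1LG2* (adjusted p = 0.0781) did not pass. No group had enough libraries to look for a single library far from the others.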

How the results depend on the processing

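Changes against control of *CD274*, *LGALS9*, *IDO1*, *NT5E* and *PVR* with both siRNAs, and of *PDCD1LG2* and *NECTIN2* with siRNA.1, kept direction and call under every alternative run. The number of genes changed was 6471 with siRNA.1 (5636 to 6501 with each library left out), 6614 with siRNA.2 (5692 to 6713) and 2604 between siRNAs (1905 to 2695), the last becoming 607 with limma on log2(FPKM + 0.1), 834 on log2(FPKM + 1) and 663 with limma on FPKM rescaled to an equal sum, an alternative added after seeing the data. Rescaling moved the higher share of calls from 49.7% to 73.6% with siRNA.1, from 51.2% to 65.8% with siRNA.2 and from 50.2% to 26.5% between siRNAs, and the median of all genes to 0.10, 0.08 and -0.03. Of the 9 genes, 8 changed with siRNA.2 (5 with limma, 5 to 8 with each library left out, 5 without control replicate 3 or siRNA.2 replicate 2) and 5 between siRNAs (2 with limma, 3 on log2(FPKM + 1), 2 rescaled, 4 to 5 with each library left out).

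The limma values, on log2(FPKM + 0.1), log2(FPKM + 1) and rescaled in that order, were -0.15, -0.15 and -0.068 for *CD276* with siRNA.1, -0.13, -0.12 and -0.067 for *CD276* with siRNA.2, and -0.12, -0.12 and -0.059 for *NECTIN2* with siRNA.2. Between siRNAs they were -0.43, -0.35 and -0.46 for *LGALS9*, -0.16, -0.16 and -0.19 for *PVR*, and -0.62 (first) and -0.65 (rescaled) for *PDCD1LG2*. *PDCD1LG2* with siRNA.2 was 0.48 with the first. Without a filter, *NECTIN2* (-0.12) and *CD276* (-0.13) with siRNA.2 and *PVR* between siRNAs (-0.15) no longer passed. The causes were not tested.

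With each library left out, siRNA.2 gave 0.39 to 0.61 for *PDCD1LG2*, -0.17 to -0.087 for *NECTIN2* and -0.16 to -0.13 for *CD276*. Between siRNAs the ranges were -0.10 to 0.053 for *CD274* (0.0003 without a filter), -0.022 to 0.46 for *IDO1*, -0.047 to 0.0091 for *CD47* and -0.18 to -0.13 for *PVR*. *CD47* with siRNA.1 was 0.056 when rescaled. *LGALS9B*, at 10 counts or fewer, ranged from -0.10 to 1.62 and from -1.25 to 0.63. As TPM put on the FPKM scale, levels moved to 26.1 for *NT5E* and 24.84 for *CD276* in controls and to 27.64 for *PVR* with siRNA.1. Replicate numbers did not pair the libraries (correlations of deviations -0.19 to 0.11). With the replicate block, 6214, 6356 and 2340 genes changed, and *NECTIN2* with siRNA.2 (-0.13, edgeR adjusted p = 0.0563) and *PVR* between siRNAs (-0.15, edgeR adjusted p = 0.0554) did not pass. Low counts limit *IDO1*, *LGALS9B* and LINC00885, which passed with siRNA.2 in DESeq2 (-2.43) and limma (-1.20).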
